A study of Ailuropoda melanoleuca with 25 samples.

Results

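Heart gene expression was described here from the 5 heart libraries of an RNA sequencing series of 25 libraries, which were set against the 20 libraries of liver, spleen, lung and kidney. The heart libraries were chosen by their tissue label alone. Each of the 5 tissues was collected from the same 5 giant pandas (Ailuropoda melanoleuca) soon after death, so that a library number marks one animal, and each tissue has 1 library per panda. Panda 1 was labelled with age 27 and ovarian cancer, panda 2 with age 9 and ileac pssion (spelled as in the labels), and pandas 3, 4 and 5 with age 0.5 and coronavirus infection. The labels give no unit of age, no healthy animal and no chamber of the heart, 4 of the pandas were female and 1 was male, and the age, the disease and the year in which an animal died coincide and cannot be told apart. Expression was given as FPKM (fragments mapped to a gene, divided by its length and by the mapped fragments of the library), and all levels below are FPKM divided by a size factor of the library, called rescaled FPKM.

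Heart muscle contracts when calcium released from the sarcoplasmic reticulum binds troponin on the thin filament, which lets the myosin heads of the thick filament pull. The filaments are anchored at the Z disc, neighbouring cardiomyocytes are joined end to end at the intercalated disc, and energy comes mainly from oxidation of fatty acids in the many mitochondria, buffered by phosphocreatine. Genes of these structures are the usual molecular marks of heart tissue.

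The depth was 15342621 to 17715135 reads on genes in the heart libraries and 13149541 to 21382959 in all 25. Size factors ranged from 0.511 to 0.755 for heart libraries, 1.5 to 1.75 for spleen, 1.53 to 1.81 for lung and 0.909 to 1.48 for kidney, while the liver of panda 3 stood apart at 0.208. Of 25376 genes listed, 18265 had a mean above 1 rescaled FPKM in at least one tissue and 13816 did so in the heart. For a transcript of 1 kb, 3 reads corresponded to 0.169 to 0.196 FPKM in the heart libraries, which is 0.233 to 0.382 rescaled FPKM, so that lower values rested on a few reads. In whole tissue, a lower level can come from fewer cells of a type or from less RNA per cell, and these cannot be told apart. The 5 libraries of a tissue come from 5 animals, so the spread between them holds animal, age, disease and handling together.

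The marker genes of the tissue label were high in every heart library and near 0 in the others. MYL2 (ENSAMEG00000013825), the ventricular regulatory light chain of myosin, reached 45586, 54580, 50354, 38476 and 42319 rescaled FPKM in the hearts of pandas 1 to 5, against a median of 3.35 and a highest value of 21.8 in the 20 other libraries. For TNNC1 (ENSAMEG00000008763), the calcium-binding subunit of cardiac troponin, the 5 hearts gave 25209, 36794, 40922, 32081 and 32488, and the highest value elsewhere was 18.1. ACTN2 (ENSAMEG00000001117), the actinin that crosslinks actin at the Z disc, gave 1735, 3324, 1666, 2751 and 1428 in the hearts and at most 2.57 elsewhere. No heart library overlapped any other library for these 3 genes. The 26 identified genes of the thick and thin filament lists held 8.18% to 10.7% of all FPKM in the heart libraries (median 9.88%) and at most 0.107% in any other library.

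Differentially expressed genes (DEGs) were called by limma on the log2(rescaled FPKM + 1) scale where the absolute difference exceeded 2 and the p-value, adjusted by Benjamini-Hochberg over all genes tested in the comparison, was under 0.05. For a gene near 0 in the other tissue, this difference is set by its heart level and the pseudocount of 1 and understates the ratio. Against the liver, 1315 of 15804 genes (8.32%) were higher and 1440 (9.11%) were lower in the heart. Against the spleen, 1327 of 15704 genes (8.45%) were higher and 1147 (7.3%) were lower. Against the lung, 1231 of 15811 genes (7.79%) were higher and 1029 (6.51%) were lower. Against the kidney, 892 of 15871 genes (5.62%) were higher and 1202 (7.57%) were lower. The split between directions depended on the scaling. Higher genes made up 47.7%, 53.6%, 54.5% and 42.6% of the DEGs against liver, spleen, lung and kidney, and 53.6%, 16.7%, 14.8% and 20% when FPKM were used as deposited. Without rescaling, the median log2 difference of all genes tested was 0.14 against the liver, -1.16 against the spleen, -1.17 against the lung and -0.76 against the kidney, and with rescaling it was -0.09, -0.06, -0.06 and -0.01.

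**Figure D1:**
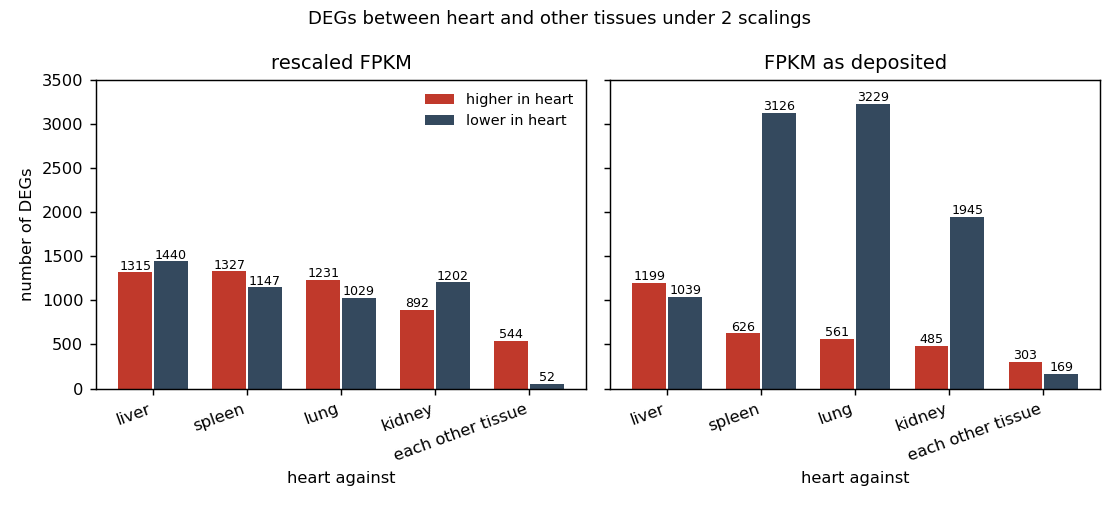
Bars give the number of DEGs (y axis) higher (red) or lower (dark) in the heart than in the tissue named on the x axis, or than in each of the 4, with rescaled FPKM on the left and FPKM as deposited on the right. Against the spleen, 1327 genes were higher and 1147 lower with rescaling, and 626 and 3126 without it.

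In all 4 comparisons together, 544 of 18265 genes (2.98%) were higher and 52 (0.285%) were lower in the heart than in each other tissue, and with FPKM as deposited these numbers were 303 and 169. Of the 544, 300 were among the 303, and of the 52 lower genes 45 were among the 169. Of the 544 genes, 361 had a symbol, 62 had an Ensembl identifier only and 121 came from the study's own transcript assembly. The 5 heart libraries lay above all 20 others for 504 of them, and over all genes this held for 1089 of 18265 (5.96%). The smallest of the 4 log2 differences, that is the one against the tissue nearest to the heart, had a median of 3.05 and passed 5 for 110 genes, 8 for 31 and 10 for 14. The nearest tissue was the kidney for 180 genes, the spleen for 130, the lung for 125 and the liver for 109. At least one other tissue lay below the heart for 2028 genes, and the largest sets after the 544 were 378 genes higher than in the liver alone and 309 higher than in the spleen and lung.

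Gene symbols came from a supplementary list of genes that had been picked as specific to one tissue in these same samples. The shares of named genes called below are therefore high by construction and are no independent evidence of a direction. In 15 lists of heart muscle genes, 172 genes could be identified, of which 152 were higher than in each other tissue, 1 was lower and 19 were neither. With FPKM as deposited 118 were higher and 2 lower, and with quantile normalization 145 were higher and none was lower.

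The 10 named genes that stood farthest above the nearest tissue were MYL2, TNNC1, ACTA1, MB, CSRP3, CKM, TNNI3, MYH7, SMPX and MYOZ2, with smallest log2 differences from 13.53 down to 10.87. They encode myofilament proteins, the oxygen store myoglobin (MB), muscle creatine kinase (CKM) and small Z disc or costamere proteins (CSRP3, SMPX, MYOZ2). In none of them did a heart library come near the others.

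**Figure D2:**
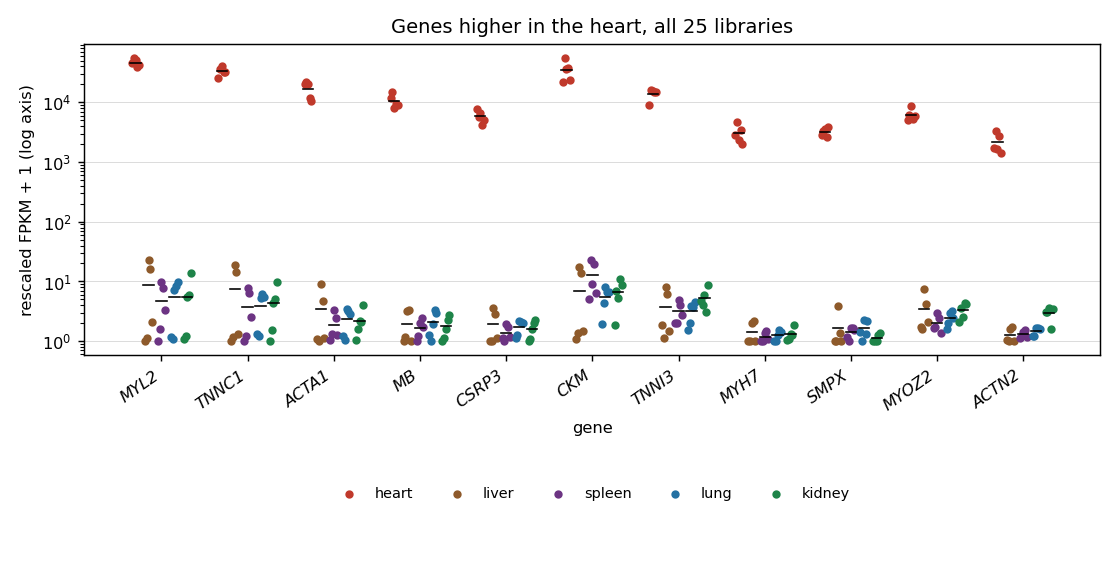
Each point is 1 library, each bar the mean of the 5 libraries of a tissue, and the y axis is rescaled FPKM + 1 on a log scale for the 10 named genes farthest above the nearest tissue and ACTN2. The lowest heart value is 1428 (ACTN2, panda 5) and the highest value of another tissue is 21.9 (CKM), both before 1 is added.

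All 16 identified genes of the thick filament and M band were higher in the heart than in each other tissue. Beside MYL2, the main motor protein of slow and ventricular muscle, MYH7, was at 2808, 4669, 2344, 3422 and 1983 rescaled FPKM in the hearts and at most 1.14 elsewhere, a log2 difference of 11.08 ± 0.36 (SE) against the nearest tissue, the liver (largest of the 4 adjusted p-values 2.37e-10). The essential light chain MYL3 was at 9966, 14294, 10743, 14043 and 12925, and its highest level elsewhere was 44.8 in a kidney. MYBPC3, the myosin-binding protein that tunes crossbridges, ranged from 641 to 1722 in the hearts against at most 2.73. Titin (TTN), the elastic scaffold that spans the sarcomere, was at 91.7, 169, 98.1, 110 and 63.2 and did not pass 0.441 elsewhere. Thus MYL2, MYL3, MYH7, MYBPC3 and TTN each lay above the 20 other libraries in every heart, at very different levels from one gene to another, while the hearts of pandas 4 and 5 overlapped other tissues for the light chain MYL4 (0.169 and 0.471, against up to 0.83 in a spleen). MYH7B, a slow myosin related to MYH7, was lower than MYH7 in every heart, and the ratio of MYH7 to MYH7B was 5.35 to 10.8. The median log2 difference of the list was 6.8, 6.57, 6.12 and 6.25 against liver, spleen, lung and kidney.

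All 10 identified thin filament genes were also higher, with medians of 9.42 to 9.47. TNNT2, the tropomyosin-binding subunit of cardiac troponin, varied little between animals (14152, 16816, 13669, 13921 and 12484), with a highest value of 18.4 elsewhere. TNNI3, the inhibitory subunit, was at 8983 in panda 1 and between 14814 and 15853 in the other 4 hearts, and at most 7.62 elsewhere. TNNT1, the slow skeletal form of troponin T, was higher in the heart too, at 279 to 990 against at most 6.41, and TNNT2 exceeded it 17.0 to 44.8 times within a heart. TPM1, an alpha tropomyosin that other tissues also express, was at 16764 to 33619 in the hearts with a median of 359 elsewhere, a log2 difference of 5.46 ± 0.53 against the liver (largest adjusted p 3.64e-06). The identifier listed as ACTA1, alpha actin of skeletal muscle, was 3.36 to 35.7 times as high as ACTC1, alpha actin of cardiac muscle. These 2 genes have nearly identical coding sequences, so how their reads were divided is uncertain.

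For the Z disc and its stress sensors, 24 of 25 identified genes were higher. CSRP3, a LIM protein of the Z disc, gave 7827, 5597, 6524, 4167 and 5039 in the hearts and at most 2.65 elsewhere. The titin cap TCAP gave 5819, 12348, 4841, 9100 and 3768 against at most 15.8, and MYOZ2, which tethers calcineurin, gave 5134, 6095, 8814, 5240 and 5839 against at most 6.5. Desmin (DES), the intermediate filament of muscle, was at 6032 to 33606 and reached 290 elsewhere. Ankyrin repeat protein ANKRD1, which is known to respond to stretch, was at 3539 to 8764 with a median of 1.25 elsewhere. PDLIM3, an actinin-binding protein, was the exception, with 6.18 to 15.5 in the hearts, a mean of 162 in the spleen, and a log2 difference of -3.8 ± 0.24 against the spleen (adjusted p 7.69e-08).

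Calcium handling genes followed, with 18 of 20 identified genes higher in the heart than in each other tissue. CAV3, the muscle caveolin, was at 961, 872, 561, 733 and 679 rescaled FPKM in the hearts and at 0 in 14 of 20 other libraries, with a highest value of 0.213. Calsequestrin CASQ2, which stores calcium in the sarcoplasmic reticulum, gave 352, 592, 347, 421 and 295 against at most 0.174. S100A1, a calcium sensor, gave 1132, 2112, 2887, 2449 and 2558 against at most 22.2. The release channel RYR2 gave 47.5, 112, 43.1, 78.3 and 51.7 against at most 0.544. For these genes the hearts lay far above every other library. By contrast, the calcium pump ATP2A2 was present in all tissues at a median of 36.4, and the hearts (366, 1021, 416, 783 and 384) stood 3.7 ± 0.31 log2 units above the spleen, with 6.89e-05 as the largest adjusted p. Its inhibitor phospholamban (PLN) was at 3178 to 7128 in the hearts and reached 132 elsewhere. The calsequestrin of fast skeletal muscle, CASQ1, was 2.1 to 29.0, so that the ratio of CASQ2 to CASQ1 varied from 12.2 to 201 between hearts. The pore subunit CACNA1D was tested against lung and kidney only, with log2 differences of -1.38 and -1.68, and JPH1 lay above all 20 other libraries without passing the threshold in each comparison.

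Of 15 identified ion channel, pump and junction genes, 11 were higher than in each other tissue. KCNJ11, the pore of the ATP-sensitive potassium channel, gave 49.3, 126, 46.0, 70.2 and 48.9 against at most 0.755. KCNJ5, a pore subunit of the channel opened by acetylcholine, gave 41.3, 48.5, 45.2, 33.6 and 50.4 and was at 0 in 14 of the 20 other libraries. GJA1, the main gap junction protein of ventricular muscle, was at 130 to 351 in the hearts and up to 113 elsewhere, and its difference against the lung, 2.04 ± 0.35, lay just beyond the threshold. KCNIP2, an accessory subunit of the transient outward potassium channel, varied from 38.3 to 468 among the hearts and was not called against the kidney (1.94 ± 0.58, adjusted p 0.0175).

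Among 10 identified regulators of cardiac transcription and splicing, 7 were higher. HAND1 was at 23.0, 24.6, 17.2, 13.5 and 28.3 in the hearts, at 0 in 18 of 20 other libraries and at most 0.0961 in the rest. Its relative HAND2 was at 189, 550, 323, 455 and 137 in the hearts but also reached 24.4 elsewhere, with means of 15.4 in the liver and 13.5 in the spleen. The splicing factor of titin, RBM20, gave 61.9, 123, 62.0, 72.8 and 52.5, and HEY2, a Notch target of ventricular muscle, gave 50.4, 175, 123, 241 and 68.6 against at most 6.38. GATA6, at 56.5 to 199, lay above all 20 other libraries but was 1.78 ± 0.33 log2 units above the spleen and was not called there. GATA5 went the other way, at 0.0669 to 0.255 in the hearts and 0.409 or more in every other library. EYA4 lay above all other libraries without passing the threshold in each comparison.

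Of the energy genes, the largest differences were in phosphate transfer and oxygen storage, where 7 of 8 identified genes were higher. CKM gave 21625, 55114, 36512, 37463 and 23995 in the hearts and at most 21.9 elsewhere. MB gave 11917, 14812, 8142, 9482 and 9061 against at most 2.37, which was 12.43 ± 0.33 log2 units above the lung (largest adjusted p 3.65e-10). The mitochondrial creatine kinase CKMT2 was at 540 to 1102, and the ADP/ATP carrier SLC25A4 at 3994 to 7029 against at most 463. The brain-type creatine kinase CKB had the opposite pattern, with 2.1 to 5.81 in the hearts and 7.67 to 441 elsewhere, so that CKM exceeded CKB 3723 to 22343 times within a heart. CKB was below every other library, and its log2 difference against the lung was -1.94, short of the threshold.

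Glycogen and glucose genes were higher for 13 of 15 identified members, and for 7 with FPKM as deposited. PGAM2, the muscle phosphoglycerate mutase, gave 1119, 1178, 1530, 1121 and 1611 in the hearts against at most 1.46 elsewhere. PRKAG3, a regulatory subunit of the AMP-activated kinase, gave 572, 720, 368, 383 and 501 against at most 0.573. ENO3, the muscle enolase, varied 1.09-fold between hearts, at 2116, 2247, 2054, 2071 and 2165, and was 4.61 ± 0.46 log2 units above the liver. Muscle glycogen phosphorylase (PYGM) was at 110 to 335, about as high as the brain form PYGB, with a ratio of 0.76 to 1.72 between them. PFKP, the platelet phosphofructokinase, was called against the liver alone. For fatty acids only 3 listed genes could be identified. CPT1B, which brings long-chain fatty acids into muscle mitochondria, was at 341, 440, 297, 260 and 355 against at most 9.62, and the lipid droplet protein PLIN4 was at 24.4 to 43.9 against at most 15.7. ACSF2, an acyl-CoA synthetase, was lower in the heart, at 0.468 to 2.28 against 8.18 to 45.2, with a log2 difference of -2.2 ± 0.23 against the spleen (largest adjusted p 1.53e-05), a call that was lost with quantile normalization at a difference of -2.0.

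All 5 identified nuclear genes of oxidative phosphorylation were higher, but only 1 of them, COX6A2, with FPKM as deposited. COX6A2, the muscle subunit of cytochrome c oxidase, gave 3109, 4601, 9086, 5769 and 5645 in the hearts against at most 35.4. COX7A1, another muscle form, gave 4899 to 7565 in the hearts, a mean of 1333 in the kidney, and 103 and 88.5 in spleen and lung. Its liver mean of 1219 rested on the library of panda 3, at 4190, and the other 4 livers were at 300.0 to 696 (mean 476). NDUFA11 of complex I was likewise next highest in liver and kidney, with a heart mean of 1723, liver and kidney means of 398 and 353 (266 in the liver without panda 3), and spleen and lung means of 73.9 and 68.2. The difference of NDUFA11 was 2.33 ± 0.41 against the liver and 4.65 ± 0.16 against the lung.

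**Figure D3:**
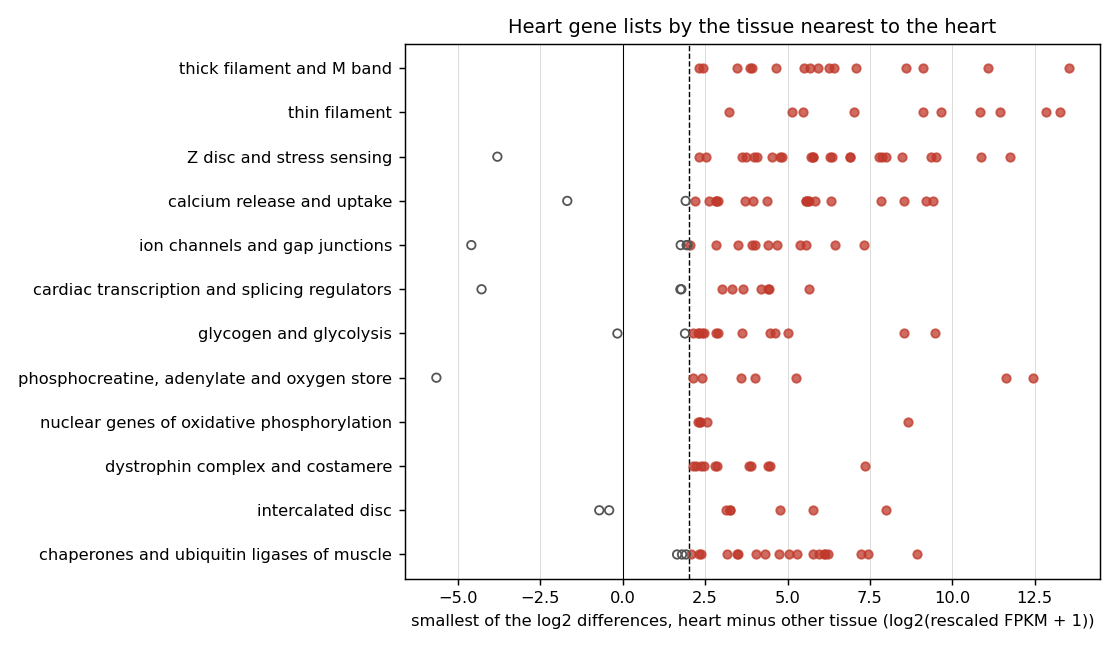
Each point is a gene of the list named on the y axis, placed on the x axis by the smallest of its log2 differences between heart and another tissue, filled where the gene was higher than in each other tissue and open where it was not. The dashed line marks the threshold of 2, and the thick filament, thin filament and oxygen store lists reach beyond 12.

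The dystrophin complex and costamere, which link the cytoskeleton to the matrix, had 11 of 11 identified genes higher, and 5 with FPKM as deposited. CAVIN4, a muscle caveolar coat protein, gave 119, 510, 204, 398 and 125 against at most 1.49, and dystroglycan (DAG1), which is not restricted to muscle, gave 70.6 to 238 against at most 53.7. At the intercalated disc 6 of 8 identified genes were higher. XIRP1 gave 275, 980, 230, 737 and 106 and XIRP2 61.0, 28.6, 15.1, 20.1 and 24.1, and XIRP2 did not pass 0.0114 elsewhere. PKP2, the desmosomal plakophilin, gave 135 to 223 and was 3.25 ± 0.27 log2 units above the liver. The desmosomal cadherin DSG2 was called higher against the spleen alone, with differences of -0.71 ± 0.32, -0.59 ± 0.31 and -0.61 ± 0.35 against liver, lung and kidney (adjusted p 0.0913, 0.126 and 0.177). DSC2 was not called against the liver (-0.41 ± 0.27, adjusted p 0.248) or, with a difference of 1.86 ± 0.28, against the lung. Both are also known from epithelia, and the levels of heart and liver overlapped.

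Of 22 identified chaperones and ubiquitin ligase adaptors of muscle, 19 were higher. The small heat shock protein HSPB7 gave 7047, 11103, 3316, 6958 and 3700 in the hearts and at most 30.9 elsewhere. KLHL40, which stabilizes thin filament proteins, gave 439, 1978, 213, 973 and 117, a spread of 17.0 times between hearts, against at most 2.79. TRIM63 (MuRF1), a ligase of muscle protein breakdown, gave 303 to 1620, and FBXO32 (atrogin-1) gave 35.1 to 233 in the hearts with up to 61.2 elsewhere, so that FBXO32 overlapped and was not called against the lung (1.92 ± 0.5). The 3 members not called were FBXO32, KLHL30 and ASB12, of which ASB12 was at 0 in all 20 other libraries and at 1.1 to 8.15 in the hearts.

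Fewer signalling genes could be identified. NPPB (ENSAMEG00000009873), the precursor of brain natriuretic peptide, gave 4491, 5323, 2303, 1823 and 151 in the hearts and at most 0.774 elsewhere. CORIN, the protease that processes natriuretic peptides, gave 5.5, 15, 4.73, 15.6 and 10.9 and overlapped a kidney library at 7.07. Of 5 identified receptors 4 were higher, and 1 with FPKM as deposited. ADRA1B, an adrenergic receptor, was at 29.9 to 81.8, CRHR2, the receptor of urocortins, at 4.77 to 18.8, and RAMP1, a receptor activity-modifying protein, at 231 to 391 against up to 77.0 elsewhere. The muscarinic receptor CHRM2 gave 9.25, 8.24, 10.2, 2.57 and 6.63 against at most 1.51. Its difference of 2.05 ± 0.31 against the spleen was just beyond the threshold and fell to 1.92 to 1.99 when any of 5 single libraries (hearts 1, 2 and 3, spleens 2 and 4) was left out.

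Of the named genes higher in the heart, the light chains of the atria varied most between the 5 hearts. MYL7 (ENSAMEG00000017578), the atrial regulatory light chain, was at 63.4, 889, 164, 5.81 and 41.5 in pandas 1 to 5, and MYL4 (ENSAMEG00000014684), the atrial essential light chain, at 12.7, 246, 122, 0.169 and 0.471. Panda 2 was highest and panda 4 lowest for both. KCNJ3, which pairs with KCNJ5 in atrial muscle, also had its highest value in panda 2 (11.6) and its lowest in panda 4 (1.57), and it overlapped other tissues. KCNJ5 itself varied 1.5-fold. Of 7 genes listed as ventricular, MYL2 varied 1.42-fold, MYL3 1.43-fold, MYH7 2.35-fold, IRX4 3.37-fold, KCNJ2 4.43-fold and HEY2 4.79-fold. NPPB, also on that list, varied 35.4-fold with its lowest value in panda 5. All of the 7 but MYL2 and MYL3 varied more than KCNJ5. The ratio of MYL2 to MYL7 thus ran from 61.4 in panda 2 to 6627 in panda 4. The call for MYL4 (3.48 ± 1.31 against the spleen, adjusted p 0.0376) was lost in 18 of the fits that left out 1 library, with adjusted p-values of 0.0501 to 0.0923, while MYL7 was called in each of these fits. Which chamber was sampled was not stated, and its part in these differences was not tested.

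**Figure D4:**
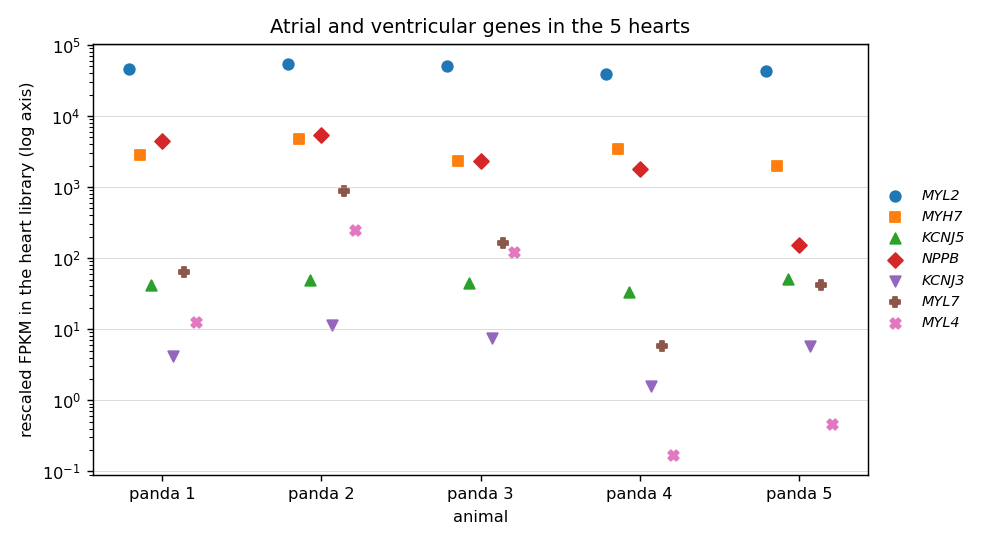
Points give rescaled FPKM (log y axis) of 4 genes listed as atrial (KCNJ5, KCNJ3, MYL7 and MYL4) and 3 listed as ventricular (MYL2, MYH7 and NPPB) in the heart library of each panda (x axis). MYL4 runs from 0.169 in panda 4 to 246 in panda 2, while MYL2 stays between 38476 and 54580.

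Over the 544 genes higher in the heart, the SD of log2(rescaled FPKM + 1) between the 5 hearts had a median of 0.545. Over all genes above 1 rescaled FPKM in the heart it was 0.411. The added 1 narrows the spread of low levels, and the 544 were selected for high heart levels, so these medians do not compare like with like. Between the 3 hearts from pandas labelled 0.5 and the 2 from older pandas, no gene of 13816 passed an adjusted p of 0.05 in limma (smallest 0.731), and 806 (5.83%) had an unadjusted p below 0.05. When the heart of panda 1 was left out, 1 gene passed, with a single older heart that was assumed to vary like the rest. The difference of this age contrast between heart and other tissues was tested as an interaction with panda as a random block, and no gene of 18265 passed (smallest adjusted p 0.0593, for IRX6, with 178, 66.9, 35.3, 11.5 and 13.4 in the hearts), with 240 (1.31%) at an unadjusted p below 0.05. With 3 against 2 hearts, this does not show that the ages were alike.

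The 52 genes lower in the heart than in each other tissue had smaller differences, with a median of -2.24 against the nearest tissue, and the heart libraries lay below all 20 others for 45 of them. Over all genes the 5 hearts lay below all other libraries for 377 of 18265 (2.06%). Of the 52, 42 had a symbol. The nearest tissue was the spleen for 20, the kidney for 14, the lung for 12 and the liver for 6.

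CDH1 (ENSAMEG00000007739), the cadherin of epithelial junctions, gave 0.0293, 0.193, 0, 0.707 and 0.138 in the hearts and 4.46 to 221 elsewhere, with a log2 difference of -3.52 ± 0.34 against the kidney (largest adjusted p 6.79e-06). EPCAM, an adhesion molecule of epithelia, was at most 0.303 in the hearts and 1.95 to 310 elsewhere. LSR, of tricellular junctions, was at 3.52 to 7.34 in the hearts against 12.3 to 175. Of 12 identified epithelial genes these 3 were lower than in each tissue and none was higher. KRT8 and KRT18, the keratins of simple epithelia, were detected in every heart at 76.0 to 253 and 25.1 to 58.7, and were higher than in the spleen by 3.93 ± 0.41 and 2.9 ± 0.28 log2 units.

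APOE (ENSAMEG00000012740), a carrier of lipids in plasma, gave 145, 41.4, 43.3, 136 and 82.9 in the hearts and 1111 to 27368 elsewhere, a difference of -4.13 ± 0.36 against the spleen. SCD, the desaturase that makes monounsaturated fatty acids, gave 1.13, 1.27, 0.952, 5.55 and 4.48 against 6.1 to 201. The triglyceride synthase DGAT2 gave 3.06 to 6.29 against 8.22 to 1398, and ACSL5, a long-chain acyl-CoA synthetase, 5.92 to 12 against 24.6 to 660. FTL, the light chain of the iron store ferritin, gave 585, 351, 556, 904 and 765 and lay below all other libraries, which began at 2262.

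Other genes of the 52 had varied functions. The gene listed as DEFB1, a beta-defensin, gave 0.387, 0, 3.79, 1.96 and 9.09 in the hearts and 13.1 to 3881 elsewhere, and at -4.2 ± 0.76 against the spleen it stood farthest below of the 42. STXBP2, a syntaxin-binding protein of granule release, gave 5.87, 2.81, 1.68, 3.1 and 3.38 against 23.5 to 104. ACP5, the tartrate-resistant acid phosphatase of macrophages, gave 0.253 to 1.17 against 6.19 to 132, and the lysosomal fucosidase FUCA1 gave 7.79 to 14.7 against 38.2 to 121. MBP, which encodes myelin basic protein and also non-myelin products, gave 1.0 to 6.8 against 18.6 to 81.2. DENND2D, a guanine exchange factor of Rab proteins, and the uncharacterized loci LOC100464625 and LOC100480698 completed the 10 farthest below.

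**Figure D5:**
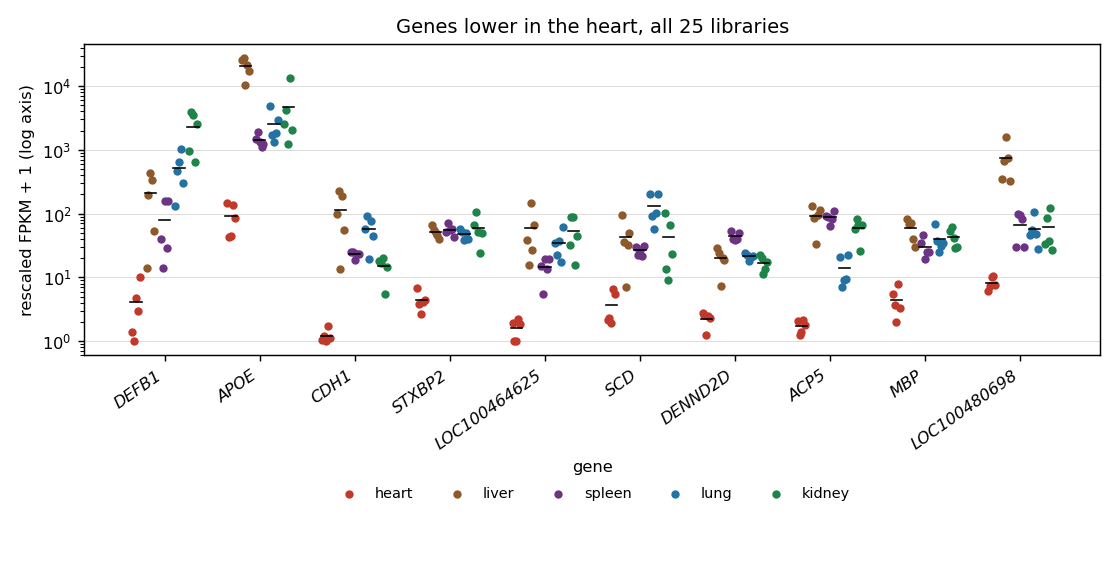
Each point is 1 library, each bar the mean of the 5 libraries of a tissue, and the y axis is rescaled FPKM + 1 on a log scale for the 10 named genes farthest below the nearest tissue. The heart points lie lowest for each gene, and for DEFB1 they run from 0 to 9.09 before 1 is added.

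The largest differences below 0 were also taken for each tissue singly. In the comparison with the liver they were SERPINA1, AHSG and APOC2, plasma proteins of hepatocytes, at -12.74 ± 0.71, -12.59 ± 0.54 and -12.47 ± 0.47. The spleen had IGHM, the heavy chain of IgM, at -9.69 ± 0.32, CD5L, a macrophage protein, at -9.28 ± 0.18, and CP, ceruloplasmin, at -7.61 ± 0.23. From the lung side SFTPC and SFTPB, proteins of surfactant, stood at -11.66 ± 0.73 and -9.86 ± 0.4, with LOC100482856 between them at -10.41 ± 0.54. For the kidney FXYD2, a regulator of the sodium pump, was at -10.67 ± 0.6, DEFB1 at -9.32 ± 0.66 and CCK, cholecystokinin, at -8.96 ± 0.61. In the other direction MYL2 and TNNC1 led all 4 comparisons, followed by CKM against the liver and ACTA1 against the others.

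Marker lists of other cell types were read for what the heart samples held. MYL9, a light chain of smooth muscle, was higher in the heart than in each tissue (662 to 1586 against at most 233), and MYH11, the smooth muscle heavy chain, was at 12.4 to 29.6 and overlapped the others. The MYL9 call was lost with FPKM as deposited (1.08) and with quantile normalization (1.17). LUM and MFAP5, matrix genes of fibroblasts, were higher (93.0 to 313 and 25.1 to 90.0) except with FPKM as deposited. FN1, fibronectin, which hepatocytes also make, was lower than in the liver (-4.15 ± 0.67, adjusted p 0.000301) and was not called against the other tissues. None of the listed endothelial or skeletal muscle genes could be identified, 1 of 7 adipocyte genes was (LEPR, below 1 in every heart), and 1 of 9 red cell genes was (SLC4A1, at most 0.0352). Of 9 identified immune cell genes, 8 were lower than in the spleen and 1, IL5RA, was higher than in each tissue, at 86.5, 27.7, 46.7, 17.6 and 81.2 against at most 0.191. Their sum was 31.5 to 95.3 in the hearts, most of it IL5RA, and 340 to 906 in the spleen.

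Heart genes were also traced in the other tissues. Over the 10 named genes farthest above the nearest tissue, the level in another tissue as a percentage of the same panda's heart had medians of 0% to 0.00209% in the 8 libraries of pandas 1 and 2, and 0.0017% to 0.0438% in the 12 of pandas 3 to 5. Outside the heart, MYL2 did not pass 0.575 in pandas 1 and 2 and lay between 1.06 and 21.8 in the other 3 pandas. CKM did not split the pandas in this way, with medians of 2.15 and 7.42 but highest values of 21.9 in pandas 1 and 2 and 18.5 in the others. The reverse, lung and liver genes in the heart, differed by gene. SFTPC was at 0, 0.217, 3.08, 13.4 and 10.4 in the hearts of pandas 1 to 5, with a mean of 14351 in the lung. AHSG was at 0.0715, 0, 0, 2.0 and 1.18, with a mean of 11709 in the liver. The hearts of pandas 1 and 2 overlapped those of pandas 3 to 5 for AHSG and for AGER of the lung (3.87, 4.57, 3.27, 5.37 and 2.85). They also overlapped for APOA1 of the liver (147, 32.9, 22.6, 131 and 151), and for APOC1, APOE and FGB. For APOC2 and FGG, at low levels, the hearts of pandas 1 and 2 lay below those of pandas 3 to 5. APOC2 gave 0, 0, 0.345, 2.14 and 2.32, and FGG gave 0.0581, 0.0953, 0.356, 1.62 and 1.43. FGA and HRG split in the same way. The 7 lung epithelium genes summed to 6.82 to 26.5 in the hearts, against 5.31 to 25.1 in the liver and 17.6 to 122 in the spleen. The 10 kidney tubule genes summed to 9.61 to 20.5 in the hearts, above the spleen (1.72 to 4.33) and the lung (2.71 to 5.34) and below the liver (33.6 to 68.7). CDH16, lowest in panda 3 (2.95) and highest in panda 2, and SLC12A3, at 2.55 to 5.11, were among them, and for both the hearts of pandas 1 and 2 overlapped those of pandas 3 to 5. The part of such traces in the differences above was not tested. The liver library of panda 3 had the highest trace in rescaled FPKM, and also the lowest size factor, 0.208, which raises its rescaled levels. Without it, 567 genes were higher and 52 lower than in each other tissue, and the smallest difference of MYL2 was 13.57.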

How the data were processed

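For each of 5 giant pandas, 1 RNA library was sequenced from each of 5 tissues. According to the methods, the authors mapped reads to the ailMel1 assembly with HISAT2, assembled further transcripts with Cufflinks, counted reads with HTSeq in union mode and deposited 1 table of FPKM values per gene, which are normalized for gene length and library size. The authors compared tissues with DESeq size factors. No reference genome of that build was used here, so no coordinates or sequences are given.

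Groups were taken from the tissue labels and animals from the library numbers. FPKM were divided by median-of-ratios size factors over 13956 genes above 0 in every library. Genes with a mean above 1 rescaled FPKM in the heart or the tissue compared were tested pairwise with limma 3.58.1 (R 4.3.3) on log2(value + 1), with a trended prior variance, and called at an adjusted p under 0.05 and a difference beyond 2. Tables were made with Python 3.11.15, numpy 2.4.6 and pandas 2.3.3. Values in a library were whole multiples of what 1 read is worth for 24207 of 24207 genes (within 0.05 reads), which gave the read totals and a limma-voom alternative. The limit of 3 reads covers counting error only, while standard errors hold the spread between animals.

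Symbols were found for 1778 identifiers, of which 1761 were used and 17 left out because the name was unreadable or repeated, and 1610 of those used are RefSeq symbols. The named genes were MYL2, TNNC1 and ACTN2, up to 4 members of each list with the largest of the smallest differences, the 10 named genes farthest above and below, and the 3 largest differences in each direction and comparison. Other list members named in the text, the isoform pairs except CKM with CKB, and the genes that vary between hearts were chosen after their values were seen. Members and lists were chosen with earlier results of these data known. Libraries of one panda deviated together. The deviations of a heart from its tissue mean correlated with those of the same panda's other tissues at r = 0.204 to 0.538 in 20 of 20 pairs (median 0.375). Between different pandas r was -0.43 to 0.379 (median -0.119), and 17 of 80 pairs were above 0.1. Deviations sum to 0 over the pandas of a tissue, so the negative median follows in part from the positive r within pandas. The pairing comes from the animal named by the library number. Alternatives were FPKM as deposited, TMM factors, quantile normalization, a pseudocount of 0.1, no filter, panda as a block, 1 fit over 25 libraries, limma-voom on recovered reads, a difference beyond 1, and each library left out. Values of some genes that the rule names are not reported here.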

Additional observations from a re-analysis of the deposited data

Results flagged for a closer look

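The 95 genes named by rule were screened for a heart library whose gap to the nearest of the other hearts was more than 0.71 of the whole range of the 5, and 9 genes had one. For normally distributed values, chance alone flags about 1 in 20 groups. The screen used levels that were not log-transformed, so its rate is not known here, and genes of one library are not independent. A gene above 0 in a single heart, such as SLC4A1, is flagged by construction.

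Panda 2 stood high for CKMT2 (1102 rescaled FPKM, next 692), MYL7 (889, next 164), RBM20 (123, next 72.8) and CDH16, a cadherin of kidney epithelium (15, next 5.94). Panda 3 stood high for MYOZ2 (8814, next 6095). Panda 1 stood low for TNNI3 (8983, next 14814). Panda 4 stood high, at low levels, for CDH1 (0.707, next 0.193), LEPR, the leptin receptor (0.985, next 0.191), and SLC4A1, the anion exchanger of red cells, which was at 0.0352 and at 0 in the other hearts. The calls for CKMT2, MYL7, RBM20, MYOZ2, TNNI3 and CDH1 against each other tissue held when that heart was left out.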

How the results depend on the processing

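No named gene changed sign under any alternative, and 76 of the 88 named genes with a call kept it under every one. Most of these were picked for large differences in the same data, which favours keeping a call. Of all 544 higher and 52 lower genes, 300 and 45 kept the call with FPKM as deposited, and 497 and 36 with quantile normalization. With FPKM as deposited, counts of genes higher and lower in the heart were 626 and 3126 against the spleen, 561 and 3229 against the lung, 485 and 1945 against the kidney and 303 and 169 against each other tissue, and the hearts lay above all other libraries for 638 genes and below for 722. ADRA1B, CHRM2, COQ10A, CORIN, LUM, MFAP5, MYL9, NDUFA11, NDUFV3 and RAMP1 then lost their calls, and ACSF2, MYL9, NDUFA11 and RAMP1 did so with quantile normalization. TMM factors gave 525 and 54 genes against each other tissue, of which 525 and 52 were the same. A pseudocount of 0.1 gave 2278 and 2260 (liver), 2011 and 2156 (spleen), 1833 and 2124 (lung), 1389 and 2107 (kidney) and 834 and 192 (each other tissue). Limma-voom on recovered reads gave 2308 and 2268 (liver), 2093 and 2171 (spleen), 1890 and 2131 (lung), 1468 and 2063 (kidney) and 865 and 199 (each), and MYL4 was not called (adjusted p 0.102), as without a filter (0.0636). A difference beyond 1 gave 2987 and 3072 (liver), 3197 and 2957 (spleen), 3095 and 2955 (lung), 2323 and 2754 (kidney) and 1221 and 339 (each). The smaller pseudocount, the read-based fit and the lower threshold each admit genes of low level or small difference by construction, and the cause of the shift with deposited FPKM was not tested.

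With panda as a replicate block, 1320 and 1448 genes were higher and lower against the liver, 1329 and 1149 against the spleen, 1236 and 1031 against the lung, 897 and 1205 against the kidney and 546 and 52 against each other tissue, and the pairing changed no call of a named gene. When single libraries were left out, there were 517 to 568 higher and 45 to 66 lower genes against each other tissue, 1233 to 1367 and 1395 to 1486 against the liver, 1261 to 1371 and 1101 to 1198 against the spleen, 1184 to 1262 and 950 to 1098 against the lung, and 827 to 969 and 1121 to 1388 against the kidney. The age contrast within the heart then gave 0 to 1 genes. Depth limits statements on 1 kb transcripts in the heart below 0.233 to 0.382 rescaled FPKM, where 3 reads or fewer carry a value.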

Other observations

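Some genes higher in the heart than in each other tissue fell outside the lists above and were chosen after their values were seen. EEF1A2, the muscle and neuron form of elongation factor 1 alpha, was at 1632, 1989, 1389, 1298 and 1036 rescaled FPKM in the hearts of pandas 1 to 5 and at most 3.53 elsewhere. RPL3L, a ribosomal protein of striated muscle, gave 320, 455, 252, 370 and 334 against at most 1.3. PNMT, the enzyme that turns noradrenaline into adrenaline, gave 83.7, 160, 64.3, 107 and 78.3 against at most 1.94, a log2 difference of 5.42 ± 0.26 against the lung. UCN, urocortin, a ligand of the receptor CRHR2, gave 12.8, 50.8, 5.42, 17.6 and 2.72 against at most 0.702, so that ligand and receptor were both higher in the heart. PNLIP, pancreatic lipase, gave 2.56 to 5.88 in the hearts and was at 0 in all 20 other libraries. KERA, keratocan, a proteoglycan of the cornea, gave 3.89, 8.67, 5.94, 23.2 and 31.6 against at most 1.23.

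A pair of genes from the study's own assembly without a symbol, Novel02497 and Novel05940, ranked with the myofilament genes, at 2800 to 6157 and 2075 to 5011 in the hearts against at most 2.71 and 1.18. SLC12A3, the sodium-chloride cotransporter of the distal tubule, was highest in the kidney (mean 125), yet the hearts (4.17, 3.5, 4.28, 2.55 and 5.11) lay above liver, spleen and lung, by 2.18 ± 0.22, 2.24 ± 0.17 and 2.22 ± 0.18 log2 units. Among the most variable heart genes, NMB, neuromedin B, gave 243, 1198, 74.2, 287 and 77.2, and FLNC, filamin C of the Z disc, 991, 1987, 139, 734 and 203. Panda 2 was highest for both.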
